A study of Mus musculus with 30 samples.

Results

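H19, Igf2, Dlk1, Meg3 and Rasgrf1 belong to 3 imprinted domains in which the control region is methylated on the copy inherited from the father. The members were all CTCF and RAD21 peaks, in the deposited peak lists of 30 libraries, that lay within 20 kb of the mm10 RefSeq bodies of these 5 genes. They numbered 439 of 1352462 listed peaks, 266 of them CTCF and 173 RAD21. Linking the summits of the wild-type (WT) libraries gave 15 CTCF sites of 47658 in the genome, and 9 RAD21 sites of 20061, that had a peak in every WT library of the antibody. No peak value was used in choosing the windows.

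CTCF is the zinc-finger protein that binds many chromatin loop anchors and insulators, and RAD21 is a subunit of the cohesin ring, which accumulates at such anchors. Both were mapped by ChIPmentation, a chromatin immunoprecipitation in which Tn5 transposase adds the sequencing adapters while the chromatin is still on the beads. The material was the E10.5 trunk of B6CBAF1 mouse embryos, taken one embryo at a time from crosses of heterozygous parents. Homozygous embryos of 6 alleles with mutated CTCF binding sites (CBS) in the Hoxd cluster were set against WT control littermates. For CTCF there were 3 libraries of Del(CBS1), 1 of Del(CBS2), 1 of Del(CBS1-2), 2 of Del(CBS1-3), 2 of Del(CBS1-4), 2 of Del(CBS1-5) and 3 of WT embryos. For RAD21 there were 3 of Del(CBS1), 1 of Del(CBS2), 2 of Del(CBS1-2), 2 of Del(CBS1-3), 2 of Del(CBS1-4), 2 of Del(CBS1-5) and 4 of WT embryos. Trunk is a mixture of tissues, the lists are not split by parental allele, and the number of mutant founder lines was not given in the sources used here. The Hoxd cluster lies on chromosome 2, so none of the 5 genes carries a mutated site.

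In the domain of Igf2, a fetal growth factor, and H19, a noncoding RNA, CTCF is known to bind the unmethylated maternal control region upstream of H19 and to keep Igf2 from enhancers beyond H19. Methylation of the paternal copy blocks that binding, so Igf2 is expressed from the paternal allele and H19 from the maternal one. Dlk1, which encodes a transmembrane protein of the Notch ligand family, is expressed from the paternal allele, and the noncoding RNA Meg3 from the maternal allele, under a control region between them. Rasgrf1, a Ras exchange factor, is expressed from the paternal allele in brain. Its control region lies upstream of the gene, farther away than the window used here reached.

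Among the 8 RefSeq promoters of these genes in the reference table (4 of Igf2, 2 of Meg3, 1 of Dlk1 and 1 of Rasgrf1), 2 were overlapped by a peak. The 250 bases before these 2 starts are shown from RefSeq (GRCm38.p6, the mm10 assembly), 5′ to 3′ in the direction of transcription. Each CpG, the dinucleotide that can be methylated, is in capitals. Overlap was counted over 300 bases, which include the first 50 transcribed bases. The RAD21 position at Meg3 lay 134 bp after the start, and whether its peaks reached the printed bases was not examined. The Igf2 promoter is at chr7:142658805-142659054 on the minus strand, and the Meg3 promoter at chr12:109540746-109540995 on the plus strand.
Igf2 promoter: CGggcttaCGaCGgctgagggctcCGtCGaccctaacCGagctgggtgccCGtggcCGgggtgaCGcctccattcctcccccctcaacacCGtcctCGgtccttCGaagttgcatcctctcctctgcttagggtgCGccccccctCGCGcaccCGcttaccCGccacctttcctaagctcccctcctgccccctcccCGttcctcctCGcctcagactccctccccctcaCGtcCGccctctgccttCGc
Meg3 promoter: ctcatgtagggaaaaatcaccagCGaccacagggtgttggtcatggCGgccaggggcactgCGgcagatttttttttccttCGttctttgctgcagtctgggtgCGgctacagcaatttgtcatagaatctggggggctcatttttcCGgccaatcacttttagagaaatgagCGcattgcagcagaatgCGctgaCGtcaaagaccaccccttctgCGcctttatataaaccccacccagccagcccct
The Igf2 stretch holds 22 CpGs and the Meg3 stretch 10. With the first 50 transcribed bases included, the counts were 24 and 13, against a median of 7.0 over 32851 promoters of this 300-base length. CTCF peaks overlapped the Igf2 promoter in 2 of 14 libraries (Del(CBS2) replicate 1 and WT replicate 2), and RAD21 peaks the Meg3 promoter in 2 of 16 (Del(CBS1-2) replicate 1 and WT replicate 2). Neither promoter had a peak in most libraries. On both strands, 3 forms of the CTCF core motif were searched, one built on AGGGGGC, another on AGGNGGC, which can overlap it, and a longer one ending in GNGGCAG. None of the 8 promoters held any of them, against 1.28%, 1.15% and 0.04% of all promoters. The sequences under the CTCF sites themselves were not analysed here.

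**Figure D1:**
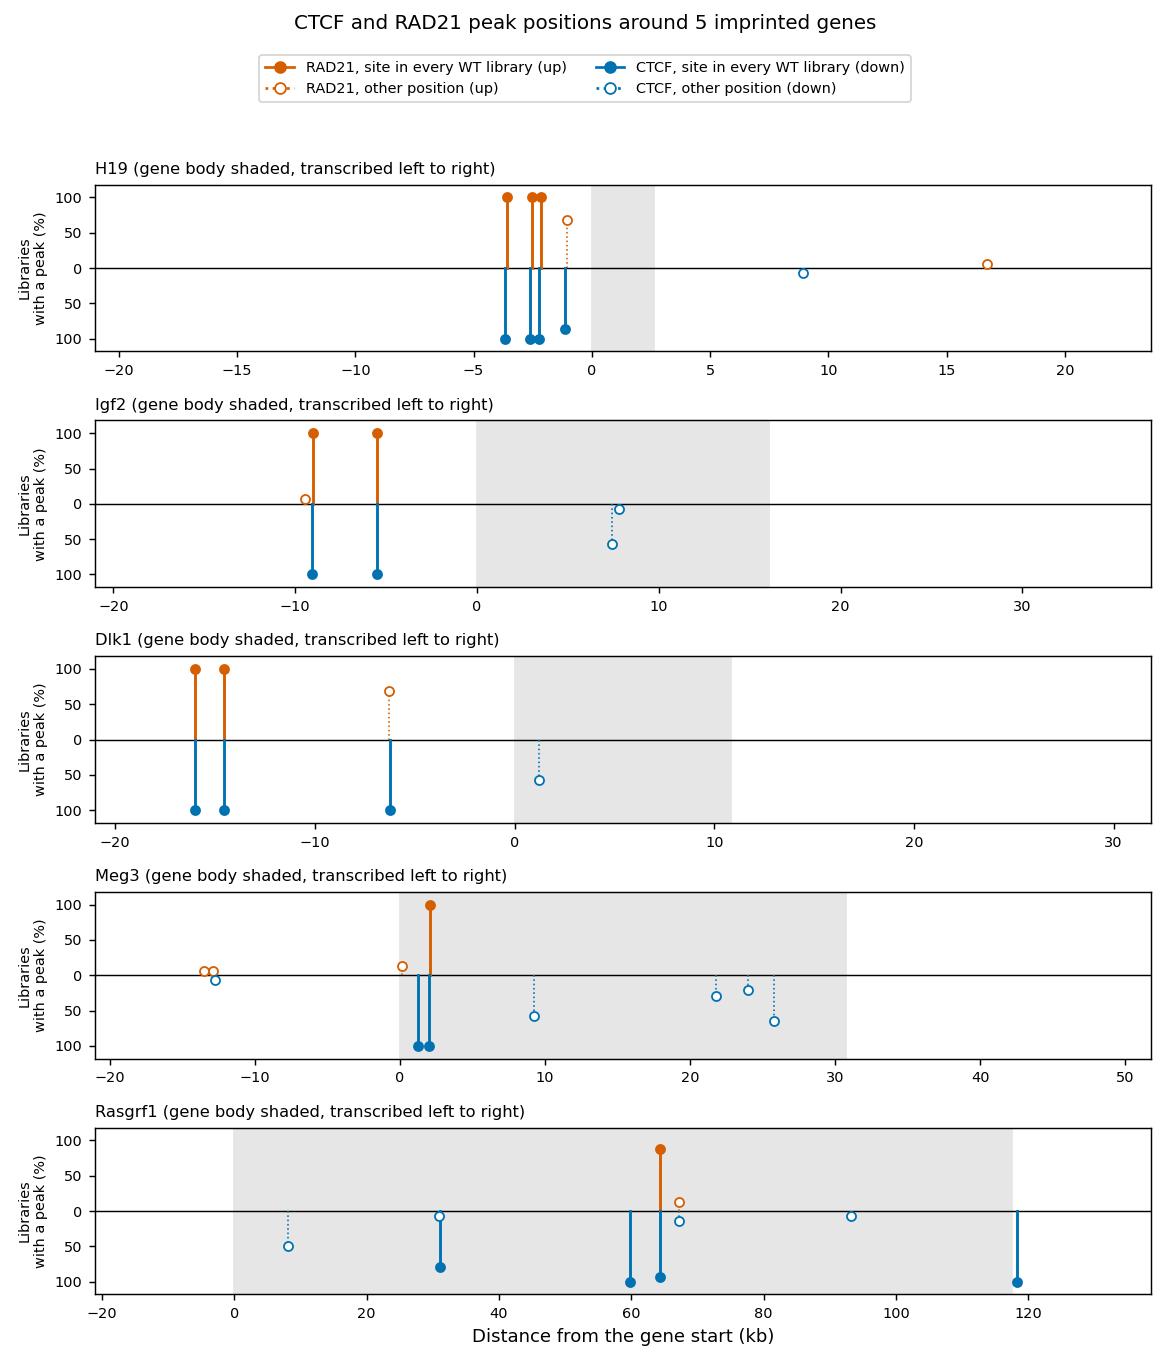
Peak positions in the 5 windows. Each line stands at the distance of a position from the gene start in kb (horizontal axis), and its length is the percent of libraries with a peak there, RAD21 upward (16 libraries) and CTCF downward (14 libraries). Filled points had a peak in every WT library, and open points did not. H19, Igf2 and Dlk1 had their filled points upstream of the gene, and Meg3 had its filled points just inside the gene.

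Upstream of H19, CTCF occupied 4 sites within 2527 bp, at 1134, 2230, 2612 and 3661 bp before the gene start (chromosome 7, positions 142579280, 142580376, 142580758 and 142581807). The 3 farther sites had a CTCF peak in 14 of 14 libraries and RAD21 in 16 of 16. The site nearest to H19 was weaker, with CTCF in 12 of 14 libraries and RAD21 in 11 of 16. CTCF was missing in Del(CBS1) replicates 2 and 3, whose lists (40667 and 44550 peaks) were shorter than every WT list. Del(CBS1-3) replicate 2 (40011) and Del(CBS1-4) replicate 1 (50523) had such lists too, with the peak. RAD21 was missing in WT replicate 1, Del(CBS1) replicate 1, Del(CBS1-5) replicates 1 and 2 (16676 to 26742 peaks) and Del(CBS1-4) replicate 1 (37118). The RAD21 list of Del(CBS1-3) replicate 2 (25579) was also of that short range, with the peak. The part of list length was not tested. In the genome, 52 of 47658 CTCF sites (0.109%) stood in 11 runs of at least 4 sites within that span. No other CTCF site of every WT library lay in the H19 window. The gene body, from 142575530 to 142578146, held none.

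Within that run the factors differed in which site led. The authors' signal value is taken here, from the layout of the peak format, as the fold enrichment of the summit over local background, and whether a control library entered it was not given in the sources used here. CTCF had its highest fold enrichment at 3661 bp in 7 of 11 mutant and 3 of 3 WT libraries. RAD21 was highest at the 2230 bp site in 12 of 12 mutant and 3 of 4 WT libraries. The RAD21 summits at 2230 and 2612 bp stood within 1 called interval, and in Del(CBS1-3) replicate 2 and Del(CBS1-4) replicate 1 a single summit gave the value of both. The CTCF fold enrichment at 3661 bp was 3.62 to 7.74 (median 5.39) in the mutant libraries, and 5.72, 5.71 and 6.87 in WT. The RAD21 fold at the 2230 bp site was 4.63 to 7.43 (median 5.74) in the mutant libraries, and 3.6, 5.85, 5.71 and 5.94 in WT. The mutant and WT values overlapped for both factors. Fold values of separately called lists are not on 1 scale, so libraries were compared by percentile, the position of a site's fold among sites common to all lists of the antibody (30976 for CTCF, 12932 for RAD21), with 0 for no peak.

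By percentile the H19 run was weak in the genome. The strongest CTCF site, at 3661 bp, was at 11.1 ± 9.17 in mutant (SD, n = 11) and 10.35 ± 4.02 in WT libraries (SD, n = 3). The sites at 2612 bp (8.10 ± 6.15 mutant, 5.18 ± 2.33 WT), 2230 bp (9.61 ± 8.24 mutant, 1.24 ± 0.44 WT) and 1134 bp (0.22 ± 0.19 mutant, 0.15 ± 0.03 WT) were lower still in WT. RAD21 was at 8.92 ± 3.86 in mutant (SD, n = 12) and 5.61 ± 4.42 in WT libraries (SD, n = 4) at the 2230 bp site. It was at 2.84 ± 2.89 in mutant and 1.29 ± 1.10 in WT libraries at 2612 bp, and at 1.03 ± 0.85 in mutant and 4.57 ± 7.63 in WT libraries at 3661 bp. Only 1 WT value at 3661 bp was above the mutant range, 16 in replicate 1.

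Igf2 had 2 sites, both upstream of the gene and both held by CTCF and RAD21 in every library. They stood 5500 bp (142672316) and 9082 bp (142675898) before the gene start, on the side of Ins2, the insulin gene, from which the second was 2758 bp away. The gap of 72622 bp between the Igf2 and H19 bodies was covered only within 20 kb of each gene, and apart from the H19 run it held no CTCF site of every WT library there. The 2 factors ranked the Igf2 sites in opposite order. CTCF was higher at 5500 bp in 7 of 11 mutant and 3 of 3 WT libraries, with percentiles of 20.9 ± 9.72 in mutant and 27.4 ± 9.36 in WT libraries there, against 14.3 ± 8.37 in mutant and 10.4 ± 1.67 in WT libraries at 9082 bp. RAD21 was higher at 9082 bp in 11 of 12 mutant and 4 of 4 WT libraries, with percentiles of 35.1 ± 18.4 in mutant and 40.7 ± 22.4 in WT libraries there, against 4.55 ± 4.03 in mutant and 2.94 ± 2.56 in WT libraries at 5500 bp. In the exception, Del(CBS2) replicate 1, RAD21 fold was 7.42 at 9082 bp and 7.48 at 5500 bp. The RAD21 fold at 9082 bp was 6.54 to 11.26 (median 7.79) in mutant libraries, and 10.83, 7.25, 8.15 and 9.3 in WT. These ranges overlapped. Inside Igf2, a CTCF peak was listed at 142659364, near the printed promoter, in 6 of 11 mutant and 2 of 3 WT libraries, at folds of 3.0 to 7.48 and with RAD21 in none.

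Dlk1 had 3 CTCF sites, again all upstream, at 16023, 14557 and 6235 bp before its start (chromosome 12, positions 109436462, 109437928 and 109446250). The middle site was the strongest, with CTCF percentiles of 54.2 ± 9.50 in mutant and 61.6 ± 8.33 in WT libraries. Its fold was 5.3 to 13.44 (median 9.73) in mutant libraries, and 13.44, 11.1 and 11.44 in WT. It had the highest CTCF fold of the window in 12 of 14 libraries and the highest RAD21 fold in 14 of 16. RAD21 stood at percentile 19.03 ± 9.13 in mutant and 17.1 ± 5.54 in WT libraries there. The site at 16023 bp carried both factors in every library at low percentiles (CTCF 2.38 ± 3.32 in mutant and 1.04 ± 0.58 in WT libraries, RAD21 7.37 ± 7.23 in mutant and 3.69 ± 5.03 in WT libraries). The site at 6235 bp ran the other way, with CTCF in every library at 36.6 ± 17.5 in mutant and 31.2 ± 20.3 in WT libraries, but RAD21 in 11 of 16 libraries. Its CTCF percentile varied widely within genotypes (12.6, 39.4 and 53.4 in Del(CBS1), and 7.7, 42.9 and 42.9 in WT). RAD21 was missing there in WT replicate 1, Del(CBS1) replicate 1, Del(CBS1-3) replicate 2 and Del(CBS1-5) replicates 1 and 2. These had the shortest RAD21 lists (16676 to 26742 peaks), and the part of list length was not tested. Within the Dlk1 body, CTCF was listed at 1248 bp from the start in 6 of 11 mutant and 2 of 3 WT libraries.

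Meg3 had its 2 CTCF sites close together inside the gene, 1251 and 2031 bp after the start (109542247 and 109543027). CTCF at the second was the highest of the window in 14 of 14 libraries, and together with the middle Dlk1 site it was the highest of the 15 sites by mean WT percentile. Its percentile was 60.2 ± 10.8 in mutant and 51.8 ± 15.3 in WT libraries, and its fold 6.29 to 16.02 (median 9.72) in mutant libraries, and 14.56, 8.75 and 10.07 in WT. RAD21 had a peak there in 16 of 16 libraries, at 13.1 ± 9.12 in mutant and 3.98 ± 2.77 in WT libraries. The first site had CTCF in 14 of 14 libraries (12.5 ± 9.20 in mutant and 9.82 ± 5.94 in WT libraries) but RAD21 in 0 of 16. CTCF was also listed at 4 positions farther into Meg3, 9226, 21755, 23984 and 25789 bp from the start, in 8, 4, 3 and 9 of 14 libraries and with RAD21 in none. Upstream of Meg3, towards the control region of the domain, the window held only peaks of single libraries, 12743 to 13505 bp before the start. A peak absent from a list means that none was called, not that the factor was absent.

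Rasgrf1, the longest of the 5 genes (89909508 to 90026979 on chromosome 9), had 4 CTCF sites, only 1 of them with RAD21. They were 31090, 59742 and 64422 bp into the gene (89940598, 89969250 and 89973930) and 858 bp beyond its 3′ end (90027837). The last was the strongest in 13 of 14 libraries, at 30.7 ± 10.8 in mutant and 28.9 ± 11.96 in WT libraries, with folds of 4.11 to 10.34 (median 7.86) in mutant libraries, and 11.42, 6.51 and 8.25 in WT. No RAD21 peak covered it in any of 16 libraries. The sites at 31090 bp (CTCF in 11 of 14 libraries) and 59742 bp (14 of 14) likewise had RAD21 in 0 of 16. Only the site at 64422 bp had both, CTCF in 13 of 14 libraries and RAD21 in 14 of 16, at CTCF percentiles of 4.45 ± 3.38 in mutant and 5.28 ± 1.42 in WT libraries. No CTCF peak covered the 31090 bp site in Del(CBS1) replicate 3, Del(CBS1-3) replicate 2 and Del(CBS1-4) replicate 1. Their lists of 40011 to 50523 peaks were shorter than every WT list. Del(CBS1-4) replicate 1 did have a peak close by, at 30922 bp (fold 4.14), that did not cover the site. Del(CBS1) replicate 2 (40667 peaks) also had such a short list, with the peak (fold 3.36). RAD21 at 64422 bp was missing in the 2 shortest RAD21 lists, Del(CBS1) replicate 1 (18029 peaks) and Del(CBS1-5) replicate 2 (16676). The part of list length was not tested. No CTCF site of every WT library lay upstream of Rasgrf1, within 20 kb or within 50 kb.

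Across the windows, 9 of 15 CTCF sites (60.0%) had RAD21 in every WT library, against 41.1% of all CTCF sites, and 4 of 15 (26.7%) had RAD21 in none of 16 libraries, against 24.6%. The 4 without RAD21 were 3 Rasgrf1 sites and 1 Meg3 site. Both comparisons depended on the sites counted. Among CTCF sites found in every library, 66.7% in the windows and 60.5% of all had RAD21 in every WT library, and 25.0% in the windows and 8.8% of all had it in none. With peaks of -log10 q of at least 10, the 9 sites with RAD21 became 4. All 9 RAD21 sites had CTCF in every WT library, as did 98.6% of RAD21 sites in the genome. In every library of the antibody, peaks covered 12 of the 15 CTCF sites (80.0%, against 65.0% of all) and 8 of the 9 RAD21 sites (88.9%, against 64.5%). The median of the mean WT percentiles was 9.8 for the 15 CTCF sites and 27.8 for all, and 4.6 for the 9 RAD21 sites and 29.2 for all. These shares are descriptions of 15 and 9 sites, several of which are neighbours, and were not tested.

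**Figure D2:**
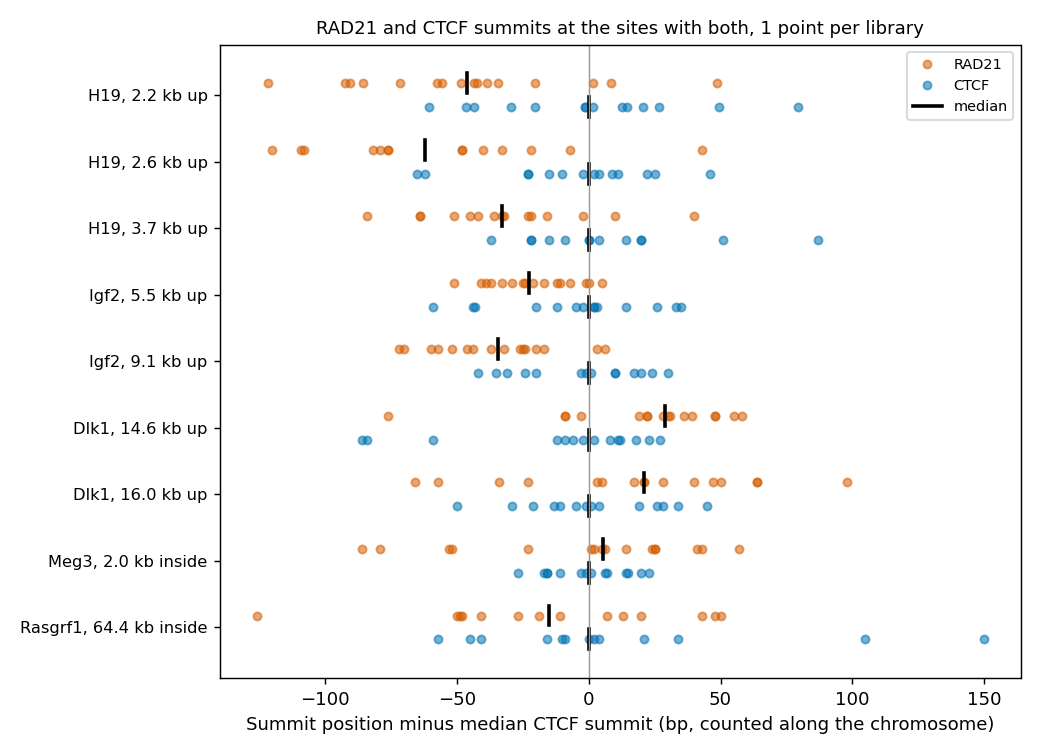
Summit positions of RAD21 and CTCF at the 9 sites with both. The horizontal axis is the distance in bp from the median CTCF summit of the site, each point is 1 library, and black bars are medians. The RAD21 medians lie to the left, at lower coordinates, at all 5 H19 and Igf2 sites, and to the right at both Dlk1 sites.

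The summits of the 2 factors did not coincide at the H19 and Igf2 sites. At all 5 sites the median RAD21 summit lay at a lower coordinate than the median CTCF summit, which is the direction of transcription of both genes and, from Igf2, the side of H19. The offset was -46.0 bp at the 2230 bp site of H19, -62.0 bp at 2612 bp and -33.0 bp at 3661 bp. It was -22.5 bp at the 5500 bp site of Igf2 and -34.5 bp at 9082 bp. Of the RAD21 libraries, 13 of 16, 13 of 14, 13 of 15, 14 of 16 and 14 of 16 had their summit on that side of the CTCF median, counting libraries with a summit within 150 bp of the site. At the Dlk1 sites the RAD21 median was at the higher coordinate, by 21 bp at 16023 bp and 29.0 bp at 14557 bp. Dlk1 lies on the plus strand, so relative to the gene this too is the direction of transcription. The offset was 5.5 bp at Meg3 and -15.0 bp at the Rasgrf1 site with both factors, and neither was stable across subsets of libraries. The ranges of single libraries overlapped at each of the 9 sites, with SDs of 15.4 to 58.5 bp. Over 19645 paired sites in the genome, 50.0% had RAD21 at the lower coordinate, and the median offset was 19 bp regardless of side. These genome values came from WT summits only, whereas the offsets above used mutant and WT libraries. In the WT libraries alone, the offsets kept their side at the H19 and Igf2 sites (where the 9082 bp site had -63.0 bp) but not at the 14557 bp site of Dlk1 (-16.5 bp). The Meg3 offset was -2.0 bp in the mutant libraries alone, 31.0 bp in the WT libraries alone and 24.0 bp with peaks of -log10 q of at least 10. The Rasgrf1 offset was 13.5 bp in the mutant and -23.0 bp in the WT libraries alone.

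**Figure D3:**
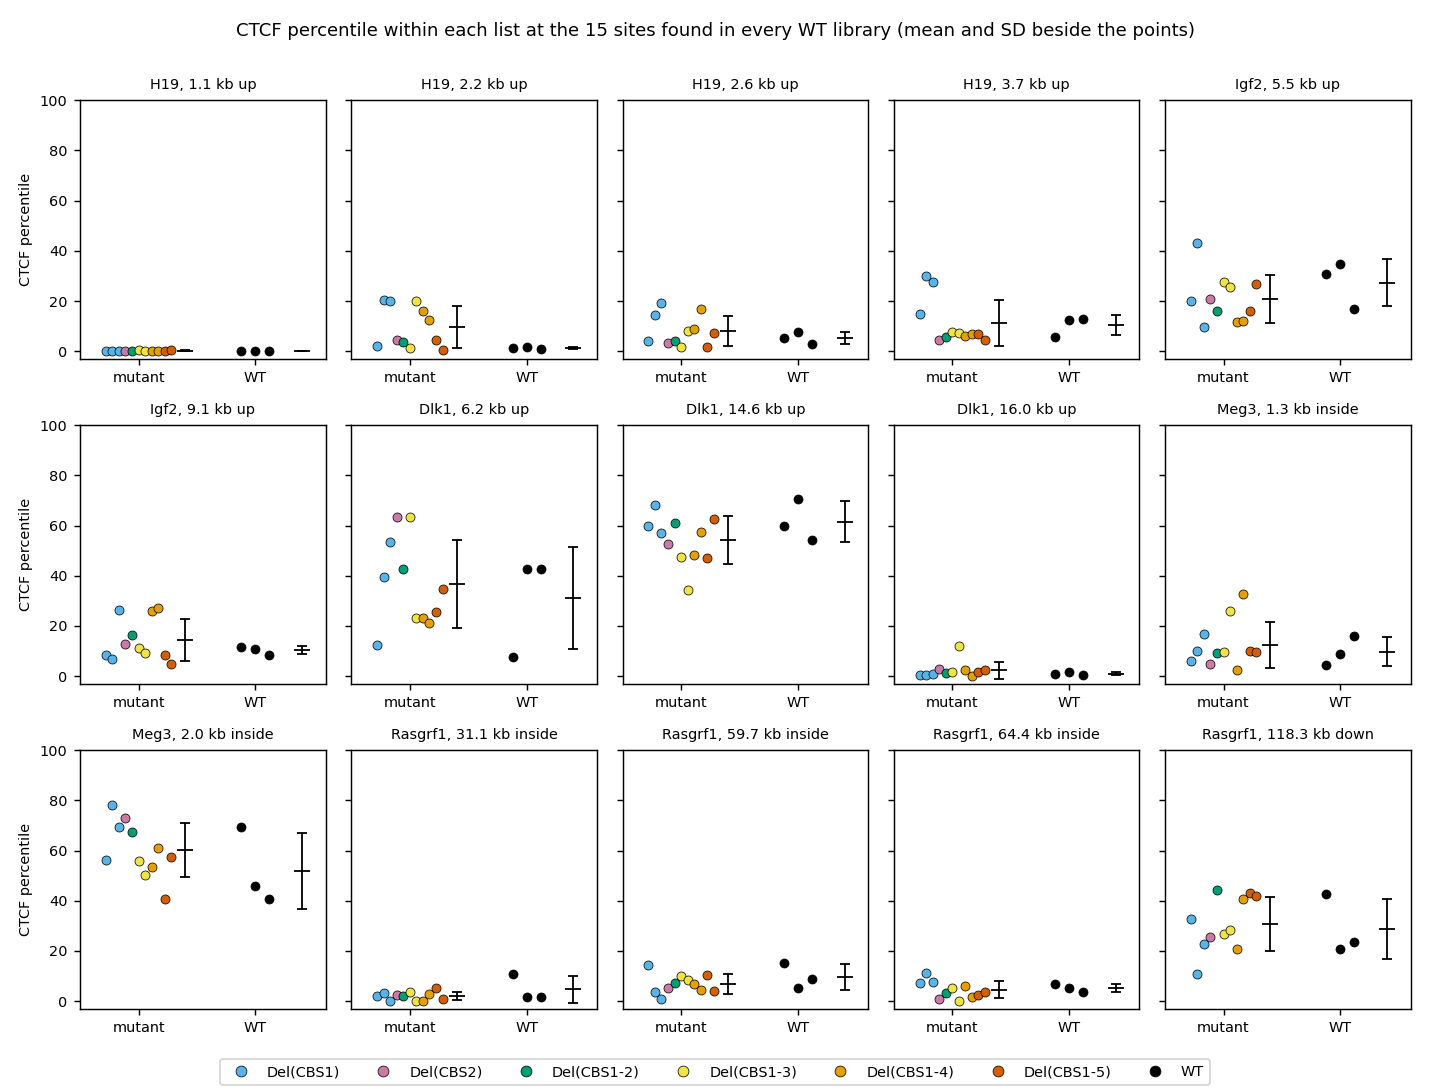
CTCF percentile of the 15 sites in each library. The vertical axis is the percentile among sites common to all CTCF lists, points are libraries coloured by genotype, and bars are the mean and SD of 11 mutant and 3 WT libraries. The middle Dlk1 site and the second Meg3 site lie highest, and the mutant and WT ranges overlap at all 15 sites.

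**Figure D4:**
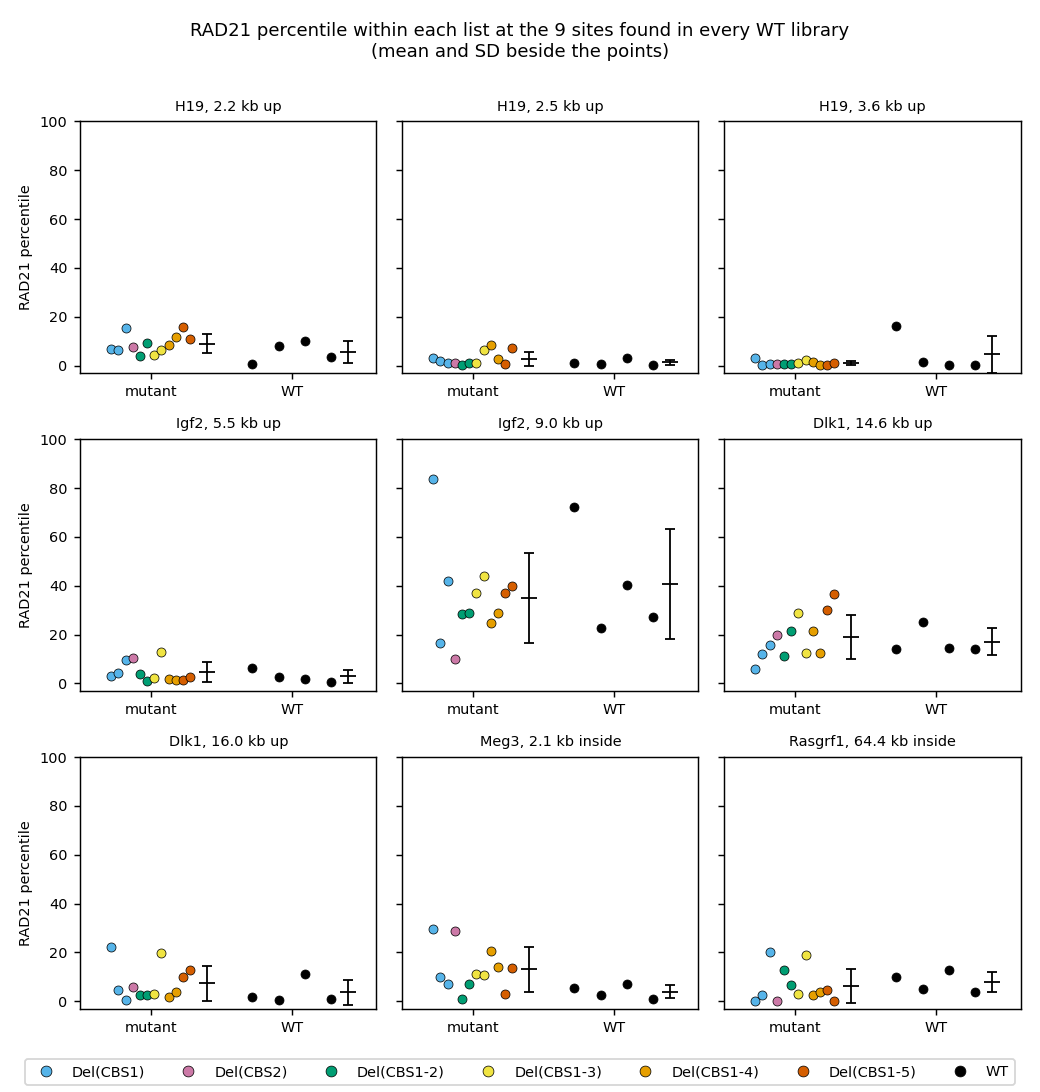
RAD21 percentile of the 9 sites in each library. The vertical axis is the percentile among sites common to all RAD21 lists, points are libraries coloured by genotype, and bars are the mean and SD of 12 mutant and 4 WT libraries. The Igf2 site at 9.0 kb lies highest, between 9.9 and 83.7 in mutant and 22.7 and 72.3 in WT libraries.

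The alleles were compared with WT to ask whether occupancy in these domains moved when the Hoxd sites were mutated. The comparison named any mutant allele against WT pooled all mutant libraries, so it did not test each allele separately. Of the 12 CTCF sites found in every library, 0 changed in this comparison (limma on normal scores of the ranks). P-values were adjusted over all 30976 sites, 0.0% of which were called. Changes ran from -0.23 to 0.75 normal-score units (median 0.12, against 0.00 over all sites). Of the 8 RAD21 sites found in every library, 0 changed either, with 0.0% of 12932 sites called and changes of -0.29 to 0.61 (median 0.22). In Del(CBS1-5), the allele with all 5 sites mutated, 0 of 12 CTCF sites (0.0% of all called) and 0 of 8 RAD21 sites (0.0464% of all, or 6 sites) were called. Those 6 calls became 157 without Del(CBS1-5) replicate 1 and 0 without Del(CBS1-5) replicate 2 or WT replicate 1, 2 or 3. The CTCF changes in Del(CBS1-5) ran from -0.30 to 0.38 (median -0.11) and the RAD21 changes from -0.48 to 0.81 (median 0.35, against 0.006 over all sites). The member with the farthest value from 0 was RAD21 at the 16023 bp site of Dlk1, at 0.81 ± 0.46 (SE), with an adjusted limma p of 0.574. Along the number of mutated sites 0 of 12 and 0 of 8 were called, again with 0.0% called overall for both factors. At an unadjusted limma p under 0.05, 567, 499 and 799 CTCF sites of the genome passed in these 3 comparisons, in that order (1.83%, 1.61% and 2.58%). For RAD21, 360, 1236 and 672 sites passed (2.78%, 9.56% and 5.2%). If no site changed, about 1549 CTCF and 647 RAD21 sites would be expected to pass in each comparison. The SEs of the members, 0.20 to 0.46 units in the first 2 comparisons, set the size of change that could be seen.

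**Figure D5:**
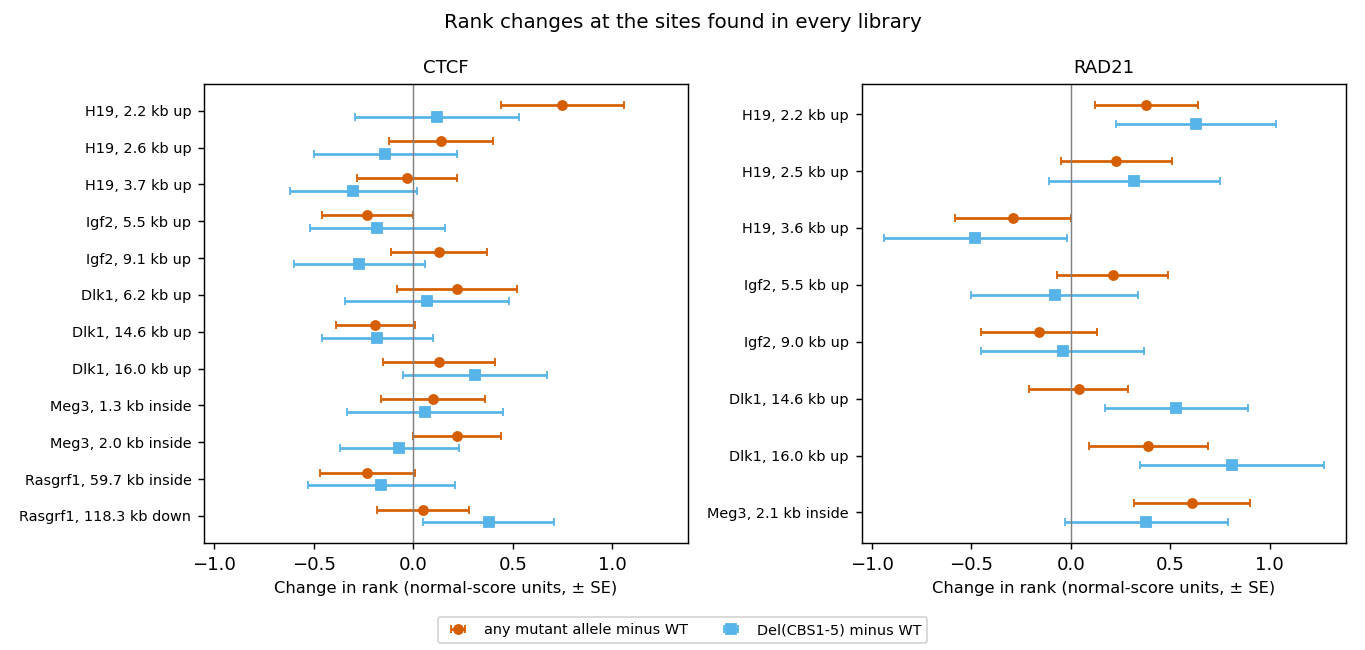
Changes in rank at the 12 CTCF and 8 RAD21 sites found in every library. The horizontal axis is the limma change in normal-score units with its SE. Circles give any mutant allele (all mutant libraries pooled) minus WT, and squares Del(CBS1-5) minus WT. No site passed the adjusted threshold, and the 2 circles farthest from 0 are the CTCF site at H19, 2.2 kb (0.75) and the RAD21 site at Meg3, 2.1 kb (0.61).

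In 2 places the unadjusted limma p was under 0.05, in any mutant allele against WT. These were 1 of 12 CTCF and 1 of 8 RAD21 sites, against 1.83% and 2.78% of all sites tested. The first was the CTCF site 2230 bp upstream of H19, with a change of 0.75 ± 0.31 (SE) and an adjusted limma p of 1.0. Its percentiles were 2.1, 20.4 and 20.0 for Del(CBS1), 4.6 for Del(CBS2), 3.5 for Del(CBS1-2), 1.5 and 20.1 for Del(CBS1-3), 16.1 and 12.4 for Del(CBS1-4), 4.5 and 0.5 for Del(CBS1-5), and 1.3, 1.6 and 0.8 for WT libraries. High and low values occurred within the same genotype, and the Del(CBS1-5) values, 4.5 and 0.5, lay on either side of the WT values. List length moved with them. The 4 mutant libraries whose lists were shorter than every WT list (40011 to 50523 peaks) had percentiles of 16.1 to 20.4. The 6 of lengths within the WT range had 0.5 to 12.4 (median 2.8), and the part of list length in the change was not tested. The second was RAD21 at the Meg3 site, with a change of 0.61 ± 0.29 (SE) and an adjusted limma p of 1.0. It had percentiles of 1.0 to 20.5 (median 8.5) in the 8 mutant libraries of WT-like list length, 13.8 to 29.7 in 2 shorter, 14.1 and 28.8 in 2 longer, and 0.8 to 7.0 in WT. The part of list length was not tested here either.

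At the strongest sites, no change in the pooled comparison of any mutant allele against WT passed the test. The CTCF changes were -0.03 ± 0.25 at H19 (3661 bp), -0.23 ± 0.23 at Igf2 (5500 bp), -0.19 ± 0.20 at Dlk1 (14557 bp), 0.22 ± 0.22 at Meg3 (2031 bp) and 0.05 ± 0.23 at Rasgrf1 (beyond the 3′ end), each ± SE and with adjusted p = 1.0 in limma. For RAD21 they were 0.38 ± 0.26 at H19, -0.16 ± 0.29 at Igf2 (9082 bp), 0.04 ± 0.25 at Dlk1 and, at the Meg3 site given above, 0.61 ± 0.29. Leaving out 1 library at a time moved these values by over 1.5 times at several sites without a call. CTCF ran from -0.40 to -0.12 at Igf2, -0.29 to -0.07 at Dlk1 and 0.07 to 0.44 at Meg3, and RAD21 from 0.11 to 0.53 at H19, with the lowest value without WT replicate 1. As a check of the genotype labels, 3 of 12 CTCF sites and 2 of 6 RAD21 sites of the HoxD window disappeared exactly with a mutation, whereas 0 of 15 and 0 of 9 sites here followed such a pattern.

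Neighbouring genes were examined as a list of 19 genes (such as Ins2 near Igf2), of which 14 had a CTCF site within 5 kb. Of their 20 tested CTCF sites and 14 tested RAD21 sites, 0 were called higher and 0 lower in each of the 3 comparisons, with median changes of 0.02 and -0.06 in any mutant allele against WT. The list is not fully separate, since 2 of its CTCF and 2 of its RAD21 sites are also sites of the 5 windows. The strongest was at Ctsh, a lysosomal protease gene beyond Rasgrf1, at a mean WT CTCF percentile of 92.8. Domains methylated on the maternal copy were covered by 24 genes, of which Nespas was not matched and 18 had a CTCF site. Of their 49 CTCF and 23 RAD21 sites, 32 and 19 were found in every library and tested, and 0 of those were called in any comparison. Their median changes were 0.01 and 0.03 in any mutant allele against WT, and -0.03 and 0.30 in Del(CBS1-5) against WT, where 14 of the 19 RAD21 changes were positive. The strongest CTCF site there was at Plagl1, a growth-suppressing zinc-finger gene (95.3), and the strongest RAD21 site at Trappc9 (90.7). The median mean WT percentile of the tested CTCF sites was 35.9 for the neighbours and 44.8 for the maternal domains.

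Over the 14 CTCF libraries, the rank (as a normal score) of each gene's strongest site was set against the 30976 sites found in every library, and the most similar sites near genes on other chromosomes were noted. The H19 site was most like sites near Pear1 (Pearson r = 0.936) and Reg4 (0.881), and the Igf2 site like sites near Clpsl2 (0.902) and Ccnd3 (0.901). Dlk1 was closest to sites in Mmgt2 (0.873) and Stau1 (0.872), Meg3 to Fam166b (0.87) and Gm32819 (0.849), and Rasgrf1 to Gm19251 (0.886) and Oas1f (0.881). These are the highest of many correlations and share libraries and list lengths, so they are given as a description.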

How the data were processed

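ChIPmentation gave 14 CTCF and 16 RAD21 libraries. For each library the authors deposited 1 list of peaks on mm10. The submitters' processing notes name MACS2 (2.1.1.20160309), Bowtie2 (2.3.5), cutadapt (1.16), Picard (2.19.0), SAMtools (1.9) and bedtools (2.27.1), with settings not given in the sources used here. Each deposited peak carries a score, a signal value taken from the format's layout to be a ratio (fold enrichment over local background), a -log10 p and a -log10 q, and a summit. The authors' lists hold no counts, so depth is unknown and no interval was computed. Lists held 40011 to 88323 CTCF and 16676 to 48102 RAD21 peaks. At most 0.06% of intervals were identical between any 2 lists. Libraries were treated as separate embryos, as the labels say that embryos were handled individually. Pooling is not stated.

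WT summits within 150 bp were linked on chromosomes 1 to 19, X and Y. A site was the median summit where a peak covered it in every WT library of the antibody, and a library had the site when a peak covered it, taking the peak of nearest summit. Other positions were linked in the same way over all libraries. Fold ranks of sites found in every library were turned into normal scores and modelled in R 4.3.3 with limma 3.58.1 (empirical Bayes with trend and robust, 1 coefficient per genotype or a slope on the number of mutated sites). A genotype of 1 library borrowed its spread from the rest. P-values were adjusted by Benjamini-Hochberg over all sites at 0.05. The fit was also run on simulated data with planted shifts and independent noise for each site and library. That noise held no effect shared by sites, such as list length, so the run gives no measure of power in these lists. Genes were RefSeq spans, and exons and introns were not analysed here. Motif, promoter and other steps used pandas 2.3.3, numpy 2.4.6 and scipy 1.17.1 under Python 3.11.15, and figures matplotlib 3.10.9. Positions are counted from 1.

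Named sites were every site of the windows, with the strongest WT site of each gene in full, and the 2 most similar sites elsewhere. The members, lists and rules were chosen with earlier results of these data known. The summit offsets and their alternatives (WT libraries, mutant libraries and a -log10 q of at least 10), and the split by list length, were chosen after seeing the data. The other alternatives were a summit within 100 bp, the same limit on -log10 q, sites present in 2 or more WT libraries, windows of 50 kb, ranks of -log10 p, centred log2 fold, limma without trend and robust fitting, omission of the weakest 25% of sites, a block on replicate number, and omitting, in turn, every library of a replicated genotype.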

Additional observations from a re-analysis of the deposited data

Results flagged for a closer look

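Among the 9 RAD21 sites, the only antibody with a genotype of 4 libraries (WT), 1 WT library stood apart from the others at 3 sites. By the gap used (Dixon's 95% limit), about 1 in 20 groups would do so by chance. At the H19 site 3661 bp upstream (142581752), WT replicate 1 was at percentile 16, and the others at 0.4, 0.4 and 1.4. At the Dlk1 site 16023 bp upstream (109436485), WT replicate 3 was at 11.2, and the others at 0.6, 1.0 and 1.9. At the Dlk1 site 14557 bp upstream (109437911), WT replicate 2 was at 25.3, and the others at 13.9, 14.3 and 14.6. A different WT library stood apart at each of these sites, and all 3 were the highest value of their group.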

How the results depend on the processing

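In no alternative was a site of the windows called in any of the 3 comparisons, among 4 to 13 CTCF and 1 to 8 RAD21 sites tested, and the lowest adjusted limma p was 0.986 for CTCF and 0.375 for RAD21. Windows of 50 kb held 24 CTCF sites, 14 RAD21 sites and 14 CTCF sites with RAD21 in every WT library. With a -log10 q of at least 10 there were 4 RAD21 sites and 4 CTCF sites with RAD21. Without 1 WT library in turn the counts were 15 to 18, 9 to 11 and 9 to 11. Over all sites, the 6 RAD21 calls in Del(CBS1-5) became 0 with the replicate block or a -log10 q of at least 10, 14 with ranks of -log10 p and 1 without the weakest 25% of sites. They became 0 to 157 without 1 library: 157 without Del(CBS1-5) replicate 1, 0 without Del(CBS1-5) replicate 2 or WT replicate 1, 2 or 3, and 3 without Del(CBS1) replicate 2 or either Del(CBS1-3) library. The other counts over all sites that moved were from 0 to 1: the CTCF slope with the replicate block, CTCF in Del(CBS1-5) without WT replicate 2 (0 to 1 over the omissions), and RAD21 in any mutant without Del(CBS1-5) replicate 2 or WT replicate 3 (0 to 1). The cause was not tested.

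Uncalled changes near 0 changed sign. CTCF at H19, 3661 bp (142581807), was 0.12 with the replicate block, 0.01 with centred log2 fold, 0.06 with ranks of -log10 p, and -0.18 to 0.04 without 1 library. CTCF at Rasgrf1 (90027837) was -0.02 with the block and -0.08 to 0.24 without 1 library, RAD21 at Dlk1, 14557 bp (109437911), -0.02 with the block and -0.03 to 0.14, and RAD21 at Igf2, 9082 bp (142675835), -0.33 to 0.12. Summit offsets changed side at Dlk1, 14557 bp (-16.5 bp in WT libraries), Meg3 (-2.0 bp in mutant libraries) and Rasgrf1 (13.5 bp in mutant libraries, 7.0 bp with a -log10 q of at least 10). Correlations between the deviations of same-numbered libraries ran from -0.251 to 0.266 over 21 CTCF pairs and from -0.188 to 0.275 over 31 RAD21 pairs. Deviations were taken from genotype means, so in the smallest replicated genotypes the libraries mirror each other and say little on pairing. Between WT and Del(CBS1), same-numbered libraries had r of 0.266, 0.131 and 0.026 for CTCF, and 0.275, 0.09 and 0.062 for RAD21. Differently numbered ones had -0.261 to 0.159 and -0.176 to 0.131. Whether the numbers pair the samples was not settled. Without read depth, a missing peak and a weak one cannot be told apart.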

Other observations

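CTCF sites 20 to 50 kb from the 5 genes were counted as well. They numbered 9, and 2 of them were stronger than any site within 20 kb: 1 at 142714868, upstream of Igf2, with a mean WT percentile of 85.9 and RAD21 in 11 of 16 libraries, and 1 at 142538087, 40059 bp from the H19 start on its downstream side, with a mean WT percentile of 75.5 and RAD21 in 16 of 16. Between H19 and Igf2, 1 further site at 142610727 (percentile 40.2) had CTCF in 14 of 14 libraries and RAD21 in 14 of 16. Downstream of Rasgrf1, the site at 90054412 (35.1) had CTCF in 13 of 14 libraries and RAD21 in 2 of 16.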
